A study of Mus musculus with 12 samples.

Results

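The genes described here encode the core proteins of the spliceosomal snRNPs, the LSm proteins and the SF3a and SF3b complexes. They were chosen by name, as every listed gene whose symbol starts with Snrp, Lsm, Sf3a or Sf3b and that reached 1 FPKM in at least 2 of the 12 libraries. Of the 23309 listed genes, 33 carried such a symbol and 32 passed. The remaining gene, Snrpn, a paralog of Snrpb best known from neurons, was listed between 0.0967 and 0.105 FPKM in every library. Lsm8 and the small SF3b subunit Sf3b6 were not analysed here. Phf5a, an SF3b subunit with another kind of symbol, is given with the other splicing genes.

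RNA-seq covered cultured myeloid progenitors of both genotypes, wild type and HMGN1-OE, at 0, 36 and 96 h after removal of estradiol (E2), with 2 libraries in each of the 6 groups. All cultures, controls included, descend from CD117+ mouse bone marrow cells transduced with a retrovirus for HoxB8 fused to the estrogen receptor, a fusion that holds cells immature while E2 is present, and were grown in IL-3. HMGN1-OE cells came from mice that carry a transgene for human HMGN1, a nucleosome binding protein, while wild-type cells lack it; the sources used here give no age for the mice and do not say how many mice lie behind each culture. Values are FPKM, fragments scaled to gene length and library size, which the authors rescaled to ERCC synthetic RNAs added to the RNA of an equal number of cells, so a value on this scale is read per cell. In such bulk samples fewer cells expressing a gene and less of its RNA per cell cannot be told apart.

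Introns are removed by the spliceosome, a machine built from small nuclear RNAs, each wrapped with proteins into an snRNP. Sm proteins close into a ring around the U1, U2, U4 and U5 RNAs, LSm proteins form a related ring on U6 RNA and, with Lsm1 in place of Lsm8, a cytoplasmic ring that promotes decapping of mRNA, and SF3a with SF3b lets U2 hold the branch site of the intron. SF3B1 is among the genes most often mutated in myelodysplastic syndromes, which makes these proteins familiar in myeloid cells.

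Transcripts of the whole group stayed high through 36 h and were low at 96 h in both genotypes. In wild-type cells all 32 genes were called lower at 96 h than at 0 h, from 3.30-fold for Lsm10 to 24.9-fold for Lsm7. All 32 also had lower means in HMGN1-OE cells, where 31 were called lower and Sf3b2 was not (limma, adjusted p = 0.0524). Naming the 2 libraries of a group a and b, 16 genes were called lower in HMGN1-OE cells without library a at 0 h (29.6% of tested genes) and 17 without library a at 96 h (30.0%). The fall was general: 77.2% of the 11516 genes tested were called lower in wild-type cells and 62.4% in HMGN1-OE cells. The median change of the 32 genes was -2.81 on the log2(FPKM + 1) scale in wild-type cells, where the median over all genes was -1.75, and -2.04 against -1.28 in HMGN1-OE cells. Of the 32 genes, 31 lay below the all-gene median in wild-type cells and 29 in HMGN1-OE cells. A fold change is given here as the ratio of mean FPKM, and a log2 difference understates the change of low genes because 1 FPKM was added to every value.

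The complexes are set side by side here by the median change of their genes, as a description with no test between complexes. The Sm ring had the lowest median change in wild-type cells, -3.50. Next came the U1 and U2 proteins at -2.82, SF3a at -2.68, SF3b at -2.56 and the LSm ring at -2.53. These medians cover only genes chosen by symbol, which for SF3b are 5 genes without Phf5a. That subunit changed by -2.92 in wild-type cells, so the place of SF3b after SF3a holds only with Phf5a left out. In HMGN1-OE cells the Sm ring was again lowest at -2.37, and SF3a, the U1 and U2 proteins, SF3b and the LSm ring stood at -2.08, -1.996, -1.91 and -1.73. The pair of U7 proteins was at -1.65 in wild-type cells and -1.25 in HMGN1-OE cells, close to the all-gene medians on this scale.

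**Figure D1:**
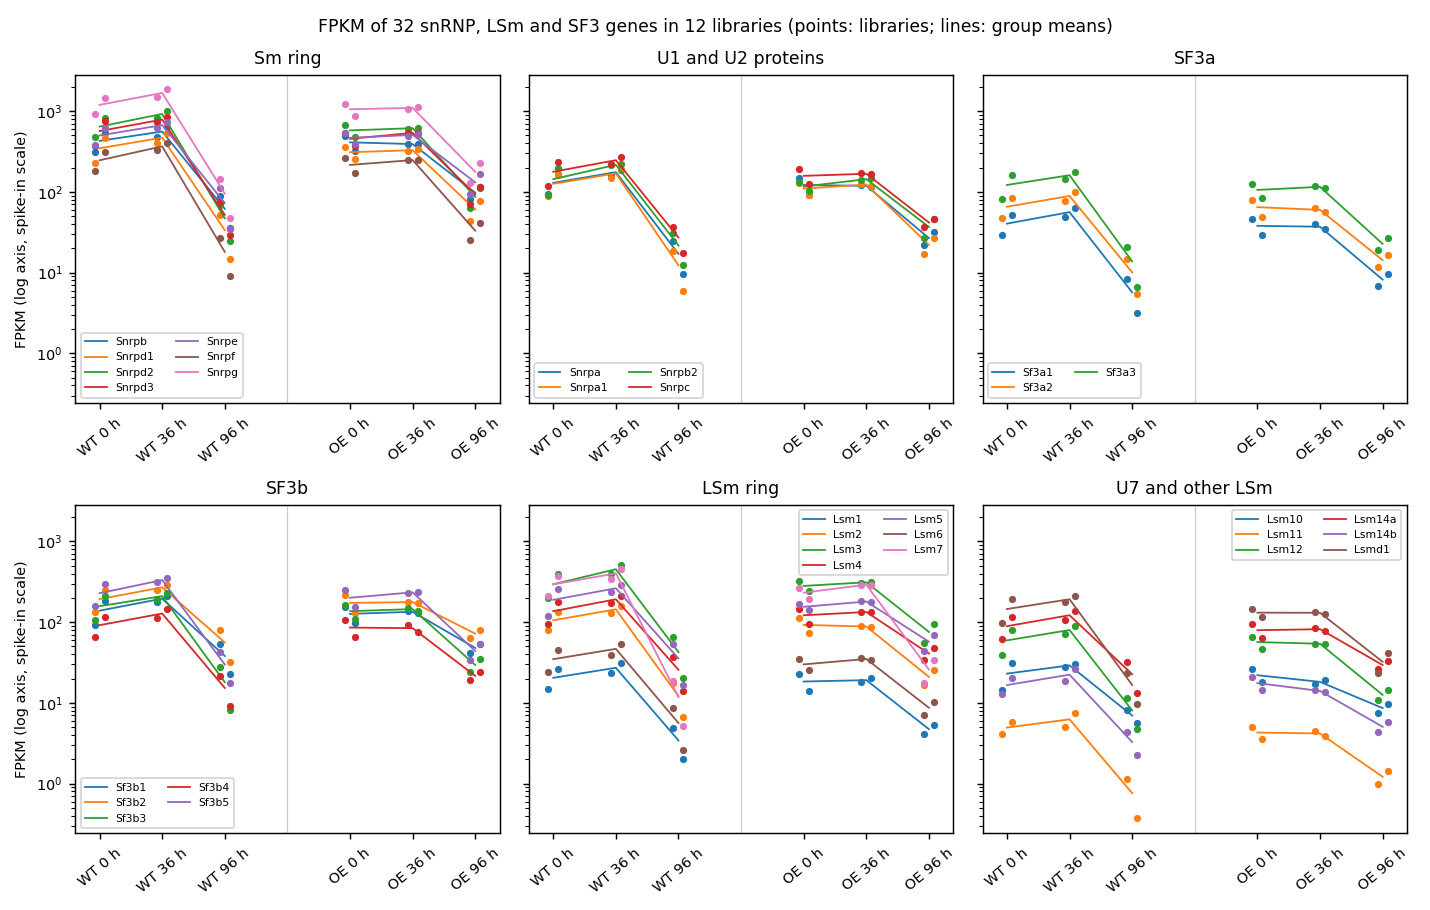
FPKM of the 32 genes on a log axis, with a panel per complex and the 6 groups along the horizontal axis (WT, wild type; OE, HMGN1-OE); points are libraries and lines join group means. Levels at 96 h lie below those at 0 h for all 32 genes in both genotypes, and Lsm7 drops from among the highest LSm genes to the middle of its panel.

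To show the DNA upstream of genes at both ends of this range, the 250 bases before the start site were taken from RefSeq (build GRCm38.p6) for the genes with the largest fall in the LSm ring (Lsm7), the Sm ring (Snrpd2) and SF3b (Sf3b3), and for the SF3b gene with the smallest fall (Sf3b2). They run 5′ to 3′ on the strand of the gene, and capitals mark letters of a searched motif on either strand.
Lsm7: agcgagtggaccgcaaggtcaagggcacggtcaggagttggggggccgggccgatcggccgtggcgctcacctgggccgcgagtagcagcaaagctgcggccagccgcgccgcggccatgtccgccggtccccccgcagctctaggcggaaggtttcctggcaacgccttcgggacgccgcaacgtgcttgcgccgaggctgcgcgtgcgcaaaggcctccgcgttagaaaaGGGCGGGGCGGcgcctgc
Snrpd2: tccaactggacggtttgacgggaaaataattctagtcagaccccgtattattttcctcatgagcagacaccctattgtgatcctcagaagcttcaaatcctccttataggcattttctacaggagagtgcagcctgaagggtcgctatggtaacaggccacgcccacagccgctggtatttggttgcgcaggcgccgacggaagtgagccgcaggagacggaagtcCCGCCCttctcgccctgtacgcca
Sf3b3: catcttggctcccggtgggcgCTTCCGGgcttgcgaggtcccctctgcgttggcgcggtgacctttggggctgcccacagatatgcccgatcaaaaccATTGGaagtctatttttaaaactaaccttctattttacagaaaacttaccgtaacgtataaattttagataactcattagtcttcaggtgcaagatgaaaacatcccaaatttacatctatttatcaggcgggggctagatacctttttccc
Sf3b2: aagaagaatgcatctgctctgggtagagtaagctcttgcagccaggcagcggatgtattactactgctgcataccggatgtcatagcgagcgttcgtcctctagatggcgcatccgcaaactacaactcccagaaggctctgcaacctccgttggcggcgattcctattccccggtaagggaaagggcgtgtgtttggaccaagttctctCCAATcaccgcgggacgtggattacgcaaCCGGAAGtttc
The windows lie at chr10:80855210-80855459 on the minus strand for Lsm7, chr7:19149588-19149837 on the plus strand for Snrpd2, chr8:110846804-110847053 on the minus strand for Sf3b3 and chr19:5295458-5295707 on the minus strand for Sf3b2. Lsm7 and Sf3b2 have 2 listed starts each, of which the first listed is shown. Sf3b3 and Sf3b2, at opposite ends of the SF3b range, both held the letters of the ETS motif and of the CCAAT box. In Sf3b3 they began 229 and 152 bases before the start, and in Sf3b2 11 and 40 bases before it. Lsm7 and Snrpd2 held only the GC box of the SP factors among the 5 motifs searched, in Lsm7 as 2 matches that overlap in a single base.

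Such windows were found for 24 of the 32 genes. The missing genes were Lsm1, Lsm4, Lsm12, Lsmd1, Sf3b4, Sf3b5, Snrpb and Snrpd1. The ETS motif, searched as CCGGAAG, was in the windows of 9 of the 24 genes (37.5%), against 7.83% of 27025 genes in the table and 16.7% of the 8530 genes tested that have a window. Those 9 genes were Lsm5, Sf3a1, Sf3a2, Sf3a3, Sf3b2, Sf3b3, Snrpb2, Snrpc and Snrpg, so that all SF3a genes were among them. The CCAAT box, searched as CCAAT, was in 37.5% of the windows, against 41.2% of tested genes, and the GC box, searched as GGGCGG, in 58.3% against 63.8%. The E-box CACGTG was in 1 window, that of Snrpa (4.17% against 10.2%), and the YY1 letters AAGATGGC in 1, from the other listed start of Lsm7 (4.17% against 2.65%). Both strands were searched, and a match says only that the letters are present.

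The 7 Sm proteins, which make up the ring on the U1, U2, U4 and U5 RNAs, included the highest transcripts of the group, with mean levels from 188 FPKM for Snrpf to 882 FPKM for Snrpg. Snrpg was listed at 918 and 1467 FPKM in the wild-type libraries at 0 h, 1503 and 1852 at 36 h and 143 and 47.8 at 96 h, and in the HMGN1-OE libraries at 1229 and 877 at 0 h, 1066 and 1125 at 36 h and 128 and 226 at 96 h. Both 96 h libraries of each genotype lay far below all its libraries at 0 and 36 h. The ratio of means from 0 to 96 h was 12.5-fold lower in wild-type and 5.95-fold lower in HMGN1-OE cells.

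Snrpd2, which pairs with Snrpd1 in the ring, had the largest fall of the Sm genes. Its libraries were at 471 and 814 FPKM at 0 h, 832 and 1011 at 36 h and 69.4 and 24.8 at 96 h in wild-type cells, and at 672 and 481 at 0 h, 605 and 624 at 36 h and 63.1 and 110.0 at 96 h in HMGN1-OE cells. No library at 96 h reached the range of the earlier times. The change was -3.86 ± 0.60 (limma SE, n = 2 against 2) on the log2(FPKM + 1) scale in wild-type cells (limma, adjusted p = 1.23e-09) and -2.75 ± 0.60 in HMGN1-OE cells (limma, adjusted p = 2.7e-05). Snrpf, the lowest Sm gene by mean level, followed it closely, from 179 and 313 FPKM at 0 h and 328 and 404 at 36 h to 27.1 and 9.01 at 96 h in wild-type cells and from 262 and 169 at 0 h and 248 and 247 at 36 h to 25.2 and 40.9 at 96 h in HMGN1-OE cells. That was a 13.6-fold fall in wild-type and a 6.52-fold fall in HMGN1-OE cells, with no overlap between 96 h and 0 h.

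Snrpb, the Sm protein with a long proline-rich tail, had the smallest fall of the ring on the log2(FPKM + 1) scale in wild-type cells, -2.86, although Snrpe fell by slightly less as a ratio of means. It was listed at 314 and 541 FPKM at 0 h, 481 and 635 at 36 h and 87.8 and 35.4 at 96 h in wild-type cells and at 496 and 325 at 0 h, 391 and 389 at 36 h and 81.5 and 114 at 96 h in HMGN1-OE cells. The groups at 96 and 0 h did not overlap in either genotype, and the ratio of means was 6.95-fold lower in wild-type and 4.21-fold lower in HMGN1-OE cells. Snrpd1, Snrpd3 and Snrpe, the other Sm genes, fell between 6.87-fold and 10.9-fold in wild-type and between 3.55-fold and 5.13-fold in HMGN1-OE cells.

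The proteins particular to the U1 and U2 snRNPs, 4 genes, lay within a narrow band, from a mean of 93.7 FPKM for Snrpa1 to 136 FPKM for Snrpc. Snrpa1, the U2 protein that binds the snRNA together with Snrpb2, was at 89.9 and 161 FPKM at 0 h, 149 and 189 at 36 h and 18.7 and 5.92 at 96 h in wild-type cells, and at 129 and 90.4 at 0 h, 126 and 119 at 36 h and 17.2 and 26.9 at 96 h in HMGN1-OE cells. It had the largest fall of these 4 genes, 10.2-fold in wild-type and 4.97-fold in HMGN1-OE cells, and its 96 h libraries lay apart from all others. Snrpc, a U1 protein that helps U1 recognise the 5′ splice site, had the smallest fall in wild-type cells.

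Its libraries were at 118 and 236 FPKM at 0 h, 219.8 and 273 at 36 h and 37.1 and 17.3 at 96 h in wild-type cells, and at 192 and 123 at 0 h, 170.1 and 165 at 36 h and 36.7 and 46.7 at 96 h in HMGN1-OE cells. Here too 96 h was below 0 h without overlap, by 6.52-fold and 3.78-fold. Snrpa, which binds a stem loop of the U1 RNA, fell 7.59-fold and 4.53-fold, and Snrpb2 fell 6.62-fold and 3.17-fold.

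SF3a has 3 subunits, and the transcripts of all of them were low at 96 h. Sf3a3 was the highest, at 80.6 and 163 FPKM at 0 h, 145 and 176 at 36 h and 20.8 and 6.72 at 96 h in wild-type cells and 127 and 84.5 at 0 h, 119 and 112 at 36 h and 18.9 and 26.6 at 96 h in HMGN1-OE cells. Sf3a2 was at 47.7 and 83.0 at 0 h, 78.0 and 99.8 at 36 h and 14.8 and 5.37 at 96 h in wild-type cells and at 79.9 and 49.3 at 0 h, 63.4 and 56.2 at 36 h and 11.8 and 16.7 at 96 h in HMGN1-OE cells. Sf3a1 was the lowest, at 29.5 and 51.3 at 0 h, 48.2 and 63.8 at 36 h and 8.22 and 3.19 at 96 h in wild-type and 46.6 and 29.3 at 0 h, 39.5 and 34.5 at 36 h and 6.89 and 9.51 at 96 h in HMGN1-OE cells. For all 3 subunits the 96 h libraries lay below every earlier library. The falls from 0 to 96 h ran from 6.49-fold for Sf3a2 to 8.83-fold for Sf3a3 in wild-type cells, and from 4.53-fold to 4.65-fold in HMGN1-OE cells.

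The 5 SF3b genes chosen by symbol, called the SF3b genes from here on, split more widely. Sf3b3, a large scaffold subunit, was at 106 and 209 FPKM at 0 h, 191 and 229.6 at 36 h and 27.8 and 8.21 at 96 h in wild-type cells and at 164 and 109 at 0 h, 152 and 138 at 36 h and 23.8 and 35.1 at 96 h in HMGN1-OE cells. Sf3b2, which binds pre-mRNA near the branch site, was at 133 and 252 at 0 h, 248 and 291 at 36 h and 80.1 and 31.9 at 96 h in wild-type cells and at 217 and 129.6 at 0 h, 179 and 175 at 36 h and 63.8 and 80.2 at 96 h in HMGN1-OE cells. At 0 and 36 h Sf3b3 was a little below Sf3b2 in every library, and at 96 h it was far below it in every library. Sf3b3 fell 8.75-fold in wild-type and 4.64-fold in HMGN1-OE cells. Sf3b2 fell 3.44-fold in wild-type cells (-1.84 ± 0.58, SE; limma, adjusted p = 0.00241), and in HMGN1-OE cells its ratio of means was 2.40-fold lower, which did not pass the test, although its libraries at 96 and 0 h did not overlap.

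Sf3b1, the subunit that clamps the branch site helix, behaved like Sf3b2; it lies outside the rule for single genes and was chosen after its values were seen, for standing near the all-gene median. It went from 92.4 and 185 FPKM at 0 h and 177 and 214 at 36 h to 53.4 and 22.8 at 96 h in wild-type cells, and from 155 and 97.9 at 0 h and 137 and 132 at 36 h to 42.0 and 53.7 at 96 h in HMGN1-OE cells. The fall was 3.64-fold in wild-type (limma, adjusted p = 0.00166) and 2.64-fold in HMGN1-OE cells (limma, adjusted p = 0.028).

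Sf3b5, a small subunit and the highest of the SF3b genes, was at 159 and 297 FPKM at 0 h, 312 and 352 at 36 h and 42.2 and 17.5 at 96 h in wild-type cells and at 248 and 153 at 0 h, 231 and 237 at 36 h and 33.7 and 54.0 at 96 h in HMGN1-OE cells. Sf3b4, the lowest, was at 66.0 and 117 at 0 h, 112 and 144 at 36 h and 21.5 and 9.16 at 96 h in wild-type and 106 and 65.6 at 0 h, 92.1 and 76.3 at 36 h and 19.2 and 24.0 at 96 h in HMGN1-OE cells. Neither gene overlapped between 96 and 0 h. Sf3b5 fell 7.64-fold and 4.57-fold, and Sf3b4 fell 5.99-fold and 3.96-fold.

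The LSm ring genes ranged from a mean of 15.6 FPKM for Lsm1 to 243 FPKM for Lsm3. Lsm7, shared by the nuclear and the cytoplasmic ring, was at 212 and 375 FPKM at 0 h, 343 and 460.2 at 36 h and 18.4 and 5.17 at 96 h in wild-type cells, and at 268 and 195 at 0 h, 291 and 291 at 36 h and 17.8 and 33.9 at 96 h in HMGN1-OE cells. Its wild-type libraries at 96 h were more than an order of magnitude below every wild-type library at the earlier times, and both HMGN1-OE libraries at 96 h also lay below every earlier library. The change from 0 to 96 h was -4.69 ± 0.57 (SE) in wild-type cells (limma, adjusted p = 1.35e-14) and -3.17 ± 0.57 in HMGN1-OE cells (limma, adjusted p = 4.31e-07). Ordered from the largest fall, Lsm7 ranked 85 of the 11516 genes in wild-type cells and 380 in HMGN1-OE cells, ahead of every other gene of the group in both.

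Lsm3, also in both rings, was the highest of these genes, at 199 and 389.7 FPKM at 0 h, 400.1 and 503 at 36 h and 64.9 and 20.2 at 96 h in wild-type cells and 321 and 241 at 0 h, 308 and 316 at 36 h and 55.1 and 96.2 at 96 h in HMGN1-OE cells. Lsm1, found only in the cytoplasmic ring, was the lowest, at 14.7 and 26.2 at 0 h, 23.3 and 31.1 at 36 h and 4.84 and 2.02 at 96 h in wild-type and 22.6 and 14.2 at 0 h, 18.1 and 20.2 at 36 h and 4.12 and 5.34 at 96 h in HMGN1-OE cells. Both genes were lower at 96 h than at 0 h without overlap. Lsm1 had the smallest fall of the ring on the log2(FPKM + 1) scale in wild-type cells, -2.30 ± 0.49 (limma, adjusted p = 9.47e-06), which was 5.96-fold as a ratio of means, and Lsm3 fell 6.92-fold. The falls of Lsm2, Lsm4, Lsm5 and Lsm6 lay between 5.31-fold and 8.66-fold in wild-type and between 2.71-fold and 4.41-fold in HMGN1-OE cells.

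Lsm10 and Lsm11 take the place of a pair of Sm proteins in the U7 snRNP, which trims the ends of histone mRNAs. Lsm10 was at 14.5 and 31.6 FPKM at 0 h, 28.2 and 30.1 at 36 h and 8.25 and 5.71 at 96 h in wild-type cells and at 25.9 and 18.1 at 0 h, 17.0 and 19.4 at 36 h and 7.44 and 9.82 at 96 h in HMGN1-OE cells. Lsm11, the lowest of the 32 genes, was at 4.14 and 5.75 at 0 h, 4.98 and 7.54 at 36 h and 1.15 and 0.372 at 96 h in wild-type and 4.996 and 3.60 at 0 h, 4.53 and 3.84 at 36 h and 0.996 and 1.44 at 96 h in HMGN1-OE cells. Neither overlapped between 96 and 0 h. The log2 change of Lsm10 was -1.51 ± 0.50 (SE) in wild-type cells (limma, adjusted p = 0.00408), the smallest of the group, and -1.25 ± 0.50 in HMGN1-OE cells (limma, adjusted p = 0.0226). That of Lsm11 was -1.78 ± 0.40 (SE) and -1.25 ± 0.40 (limma, adjusted p = 2.67e-05 and 0.00433), which the added 1 FPKM shrinks at such low levels: as a ratio of means Lsm11 was 6.49-fold and 3.53-fold lower.

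The other proteins with an LSm domain do not belong to a splicing snRNP. Lsm14a and Lsm14b are components of mRNP granules that repress translation, Lsm12 is an RNA binding protein of the cytoplasm, and Lsmd1, now named Naa38, is a subunit of the NatC acetyltransferase. Lsm14a went from 62.4 and 116 FPKM at 0 h and 107 and 137 at 36 h to 32.3 and 13.1 at 96 h in wild-type cells and from 95.3 and 63.5 at 0 h and 85.1 and 78.6 at 36 h to 26.0 and 32.8 at 96 h in HMGN1-OE cells. Lsm14b went from 12.9 and 20.4 at 0 h and 18.4 and 26.3 at 36 h to 4.31 and 2.24 at 96 h in wild-type and from 20.6 and 14.5 at 0 h and 14.3 and 13.8 at 36 h to 4.38 and 5.75 at 96 h in HMGN1-OE cells. These paralogs fell by similar factors, 3.93-fold and 5.08-fold in wild-type and 2.70-fold and 3.47-fold in HMGN1-OE cells.

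Lsm12 was at 39.7 and 79.1 FPKM at 0 h, 70.7 and 89.1 at 36 h and 11.4 and 4.77 at 96 h in wild-type cells and 66.3 and 47.0 at 0 h, 54.0 and 54.1 at 36 h and 10.7 and 14.4 at 96 h in HMGN1-OE cells. Lsmd1 was at 98.1 and 192 at 0 h, 175 and 209 at 36 h and 23.5 and 9.82 at 96 h in wild-type and 147 and 115 at 0 h, 134 and 127 at 36 h and 23.4 and 41.2 at 96 h in HMGN1-OE cells. Both were low at 96 h in all libraries and fell 7.37-fold and 8.71-fold in wild-type and 4.51-fold and 4.05-fold in HMGN1-OE cells. None of these 4 genes overlapped between 96 and 0 h. Over all 32 genes no library at 96 h reached a library of the same genotype at 0 h, a pattern shared by 80.9% of tested genes in wild-type cells and 82.8% in HMGN1-OE cells.

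**Figure D2:**
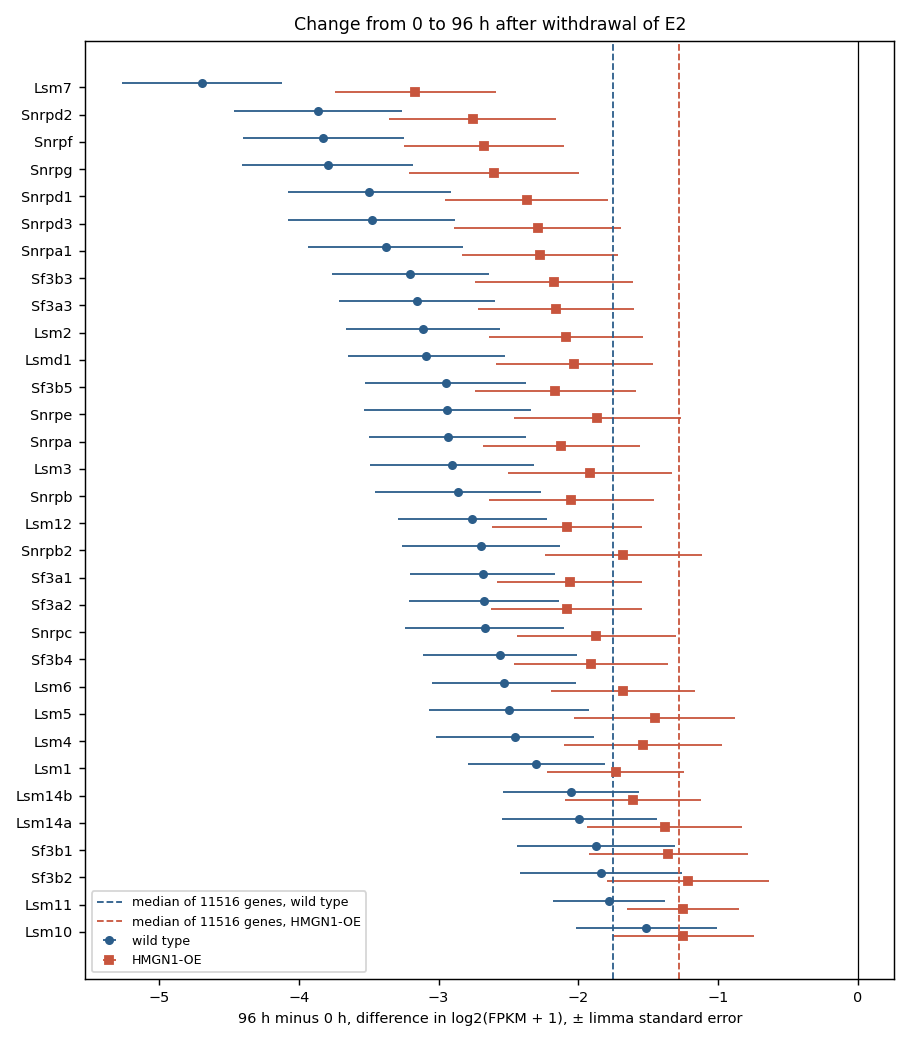
Change from 0 to 96 h of each of the 32 genes as a difference in log2(FPKM + 1), with limma standard errors, for wild-type (circles) and HMGN1-OE cells (squares); dashed lines mark the medians over the 11516 tested genes at -1.75 and -1.28. Lsm7, Snrpd2, Snrpf and Snrpg are farthest to the left in both genotypes, and Sf3b1, Sf3b2, Lsm10 and Lsm11 lie near the dashed lines.

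The fall took place after 36 h. Between 0 and 36 h none of the 32 genes passed the limma test in either genotype, where 0.617% of tested genes were called in wild-type cells and 1.8% in HMGN1-OE cells. None reached an unadjusted p under 0.05, and none was called under the other scalings, filters and models tried. Their median change was 0.50 in wild-type cells, where the all-gene median was 0.47, and 0.11 against 0.06 in HMGN1-OE cells. Between 36 and 96 h all 32 genes were called lower in wild-type cells (86.3% of tested genes were). Their median was -3.34 against -2.21 for all genes. In HMGN1-OE cells all 32 again had lower means and 31 were called lower (64.9% of tested genes), with a median of -2.02 against -1.33. Lsm10 stood at -1.01 ± 0.50 (SE) and was not called (limma, adjusted p = 0.0645). Without HMGN1-OE library a at 96 h, 19 genes were called lower (30.8% of tested genes). Lsm7 had the largest fall after 36 h in both genotypes, -5.18 ± 0.57 and -3.51 ± 0.57 (SE).

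Because most genes fell on the spike-in scale, the group was also set against the other genes of the same library. At 0 and 36 h the 32 genes together made up between 0.69% and 0.74% of the summed FPKM of a library. At 96 h they made up between 0.196% and 0.304%. That sum includes 10 mature granulocyte markers, at most 2963 FPKM together at 0 and 36 h and 65644 to 171646 FPKM at 96 h. The median of the 32 genes lay 2.66 to 2.87 above the all-gene median at 0 and 36 h on the log2(FPKM + 1) scale. At 96 h it lay 1.39 to 2.23 above the all-gene median. When each library was centred on its own median, 26 of the 32 genes were called lower at 96 h than at 0 h in wild-type cells (33.8% of tested genes), and 22 in HMGN1-OE cells (32.5%). No gene of the group was called higher. Centring keeps the added 1 FPKM, which shrinks the change of low genes. Genes matched to the group by level were not compared. Under quantile normalization 27 genes were called lower (39.6% of tested genes) and 2 higher (32.7%) in wild-type cells, and 21 lower (36.8%) and 1 higher (30.3%) in HMGN1-OE cells.

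In wild-type cells the 7 Sm, 7 LSm, 4 U1 and U2 and 3 SF3a genes were all called lower after centring, with medians of -1.65, -0.68, -0.97 and -0.84. In SF3b, Sf3b3, Sf3b4 and Sf3b5 were called lower, while Sf3b1 was at -0.03 ± 0.10 and Sf3b2 at 0.0099 ± 0.12 (SE; limma, adjusted p = 0.825 and 0.948). Lsm10, Lsm11, Lsm14a and Lsm14b were not called either. In HMGN1-OE cells those 6 genes were again not called, and neither were Lsm4, Lsm5, Snrpb2 and Snrpe. Both U7 genes and Sf3b2 changed sign under centring, Lsm10 to 0.33 ± 0.17 in wild-type cells (limma, adjusted p = 0.103).

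**Figure D3:**
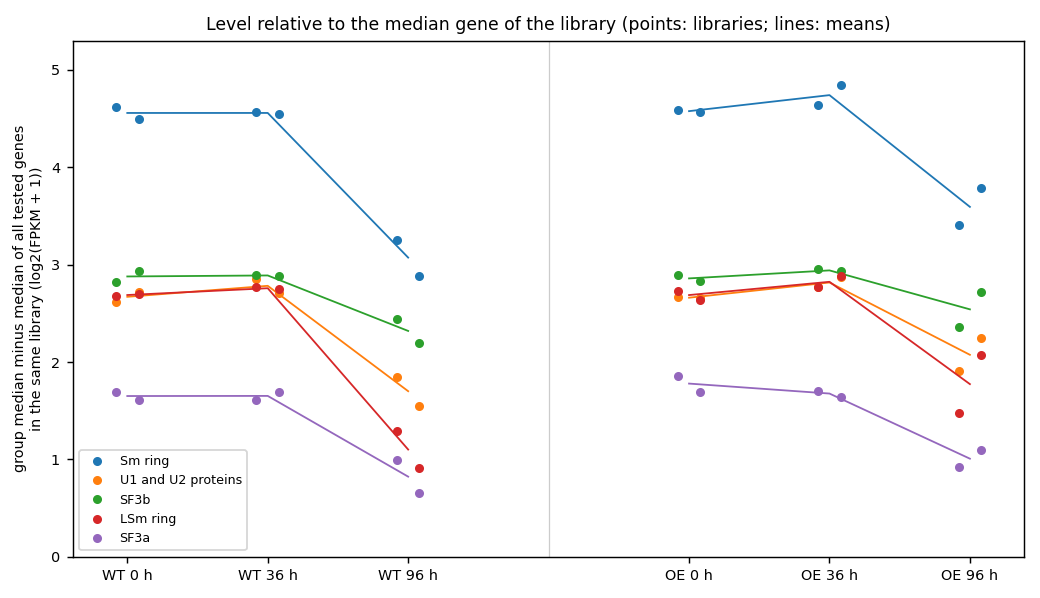
Median of each complex minus the median of all tested genes in the same library, in log2(FPKM + 1), for the 6 groups (WT, wild type; OE, HMGN1-OE); points are libraries and lines join group means. The Sm ring lies between 4.50 and 4.84 at 0 and 36 h and between 2.89 and 3.78 at 96 h. The plot follows the middle gene of each complex, so the order of the drops is not that of the median changes given for the complexes.

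Ratios between genes of a library need no pseudocount, but they come from values already normalized to the ERCC RNAs by loess. For each complex the gene with the largest fall in wild-type cells on the log2 scale was divided by the gene with the smallest, so the wild-type ratios had to drop and are a description, while the HMGN1-OE libraries did not enter the choice. Sf3b3 was at 0.757 to 0.845 of Sf3b2 in the 8 libraries of 0 and 36 h, at 0.258 to 0.347 in wild-type libraries at 96 h and at 0.373 to 0.438 in HMGN1-OE libraries at 96 h. Lsm7 went from 11.8 to 16.1 times Lsm1 before 96 h to 2.57 to 3.81 times in wild-type and 4.31 to 6.36 times in HMGN1-OE libraries. Snrpd2 stood above Snrpb at 0 and 36 h, at 1.35 to 1.73 times its level, and below it at 96 h, at 0.70 to 0.791 in wild-type and 0.774 to 0.969 in HMGN1-OE libraries.

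Snrpa1 over Snrpc went from between 0.672 and 0.761 to between 0.342 and 0.504 in wild-type and between 0.47 and 0.576 in HMGN1-OE libraries. The ratio of Sf3a3 to Sf3a2 was 1.59 to 1.99 before 96 h, 1.25 to 1.41 in wild-type libraries at 96 h and 1.59 to 1.60 in HMGN1-OE libraries at 96 h. Of the 8 earlier libraries only HMGN1-OE library a at 0 h, at 1.59, was as low as these, and the next lowest stood at 1.69. In the other 4 pairs the HMGN1-OE libraries at 96 h lay outside the range of the earlier libraries. No test of these ratios was run.

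**Figure D4:**
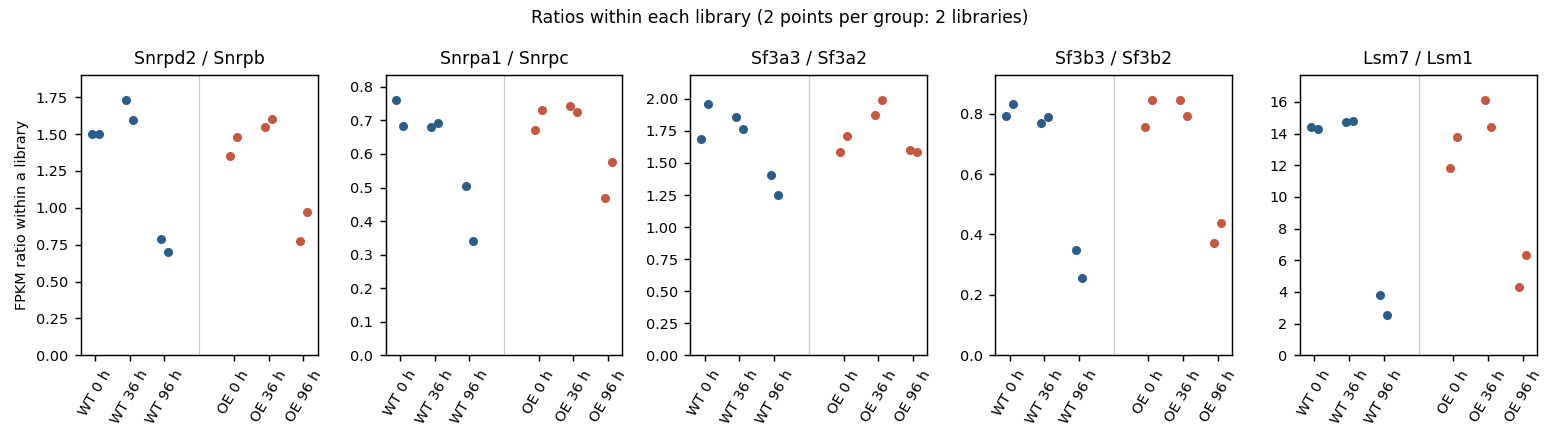
FPKM ratio of the gene with the largest to the gene with the smallest fall of each complex, within each library, with 2 points per group (blue, wild type; red, HMGN1-OE) and axes starting at 0. Sf3b3 / Sf3b2 drops from 0.757 or more to 0.438 or less in both genotypes, while Sf3a3 / Sf3a2 in HMGN1-OE cells lies between 1.59 and 1.99 throughout, with both 96 h libraries and 1 library of 0 h at the low end.

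Overexpression of HMGN1 was compared with wild type at each time. At 0 h, 36 h and 96 h none of the 32 genes passed the limma test, where 1.36%, 1.26% and 0.669% of tested genes were called. At 0 h the median difference was -0.13, against -0.12 over all genes, and no gene had both HMGN1-OE libraries on the same side of both wild-type libraries, against 3.26% of tested genes above and 4.67% below. At 36 h every HMGN1-OE library was lower than every wild-type library for all 32 genes, which was also true of 84.4% of tested genes. The median difference was then -0.55 for the group and -0.54 for all genes.

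At 96 h all 32 genes had a higher mean in HMGN1-OE cells on the log2(FPKM + 1) scale, with a median of 0.78, against 0.36 over all genes. The largest difference was that of Lsm7, 1.22 ± 0.57 (SE), the only gene with an unadjusted p under 0.05 (limma, adjusted p = 0.859). The wild-type libraries at 96 h differed between themselves by more than this: Lsm7 was at 18.4 and 5.17 FPKM in wild-type and 17.8 and 33.9 FPKM in HMGN1-OE cells, so that the groups overlapped. Only 1 gene, Lsm14b, had both HMGN1-OE libraries above both wild-type libraries, against 10.2% of tested genes. Without wild-type library a, 1 gene of the group was called higher (0.799% of tested genes). The distance of the group median from the all-gene median, 0.42, was 0.163 to 0.633 with 1 library left out in turn.

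The interaction of genotype with time was positive for all 32 genes both from 0 to 96 h and from 36 to 96 h, with medians of 0.88 and 1.29 against 0.51 and 0.92 over all genes. No gene was called in either (0.677% and 0.547% of tested genes were). From 0 to 96 h none had an unadjusted p under 0.05, and from 36 to 96 h Lsm2 at 1.55 ± 0.78 and Lsm7 at 1.67 ± 0.81 did (SE; limma, adjusted p = 0.355 for both). None was called in either interaction under the other scalings, filters and models tried. A smaller fall of these genes under overexpression of HMGN1 was therefore not shown beyond the spread between libraries.

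Other genes of the splicing pathway and of snRNP assembly, 58 in all and all tested, were low at 96 h as well. Of these, 58 were called lower at 96 h than at 0 h in wild-type cells, with a median of -2.60. In HMGN1-OE cells 57 were called lower, with a median of -1.88. Over all tested genes, 77.2% and 62.4% were called lower in these comparisons, with medians of -1.75 and -1.28, and the counts of each list that follow are to be read against those shares. All 15 snRNP assembly factors, which load Sm proteins onto the snRNA, fell in both genotypes, with medians of -2.99 and -2.18. Among them Prmt5, the methyltransferase that modifies Sm proteins before assembly, had the largest fall, -4.47 ± 0.54 (SE; limma, adjusted p = 7.48e-15) in wild-type cells. Its libraries were at 76.0 and 133 FPKM at 0 h and at 6.72 and 1.73 FPKM at 96 h, more than an order of magnitude apart. Gemin7, a subunit of the SMN complex, had the smallest fall of that list, -1.75 ± 0.54.

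The 16 further U1, U4/U6 and U5 proteins all fell in both genotypes, with medians of -2.58 and -1.91, where 77.2% and 62.4% of tested genes were called lower. They ran from Prpf31, a U4/U6 protein, at -3.47 to the U5 protein Cd2bp2 at -1.87 in wild-type cells. The 10 branch site and 3′ splice site factors did so too, with medians of -2.57 and -1.76, and ran from Phf5a, an SF3b subunit, at -2.92 to Zrsr2 at -1.59. All 7 proteins of the minor spliceosome fell, with medians of -2.26 and -1.58, from Snrnp25 at -2.49 to Rnpc3 at -1.47. Of the 10 SR proteins, which bind exons and recruit snRNPs, 10 were called lower in wild-type cells and 9 in HMGN1-OE cells. Their medians were -2.68 and -1.89. Srsf1 had the largest fall of these, -3.44, and Srsf5 the smallest, -1.82.

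The decapping partners of the cytoplasmic LSm ring, 8 genes, lay nearer to the all-gene median, at -1.89 in wild-type cells and -1.47 in HMGN1-OE cells. All 8 were called lower in wild-type cells (77.2% of tested genes were), from Edc3 at -2.34 to Dcp1b at -1.19. In HMGN1-OE cells 6 were called lower (62.4% of tested genes). Of the 2 partners of U7, Slbp, which binds the histone stem loop, fell in wild-type cells (-1.73 ± 0.56, SE; limma, adjusted p = 0.00327), and Zfp473 was at -0.34 ± 0.32 (SE; limma, adjusted p = 0.323). Neither passed the test in HMGN1-OE cells.

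Within the group the genes with higher levels fell more. The Spearman correlation between mean level and change from 0 to 96 h was -0.628 in wild-type cells and -0.49 in HMGN1-OE cells over the 32 genes, and -0.52 and -0.392 over 11397 tested genes with an annotated length. With exon length it was 0.282 and 0.194 over the 32 genes, and 0.0396 and 0.0146 over all. These are descriptions across genes of the same libraries, which are not independent, and the added 1 FPKM shrinks the change of low genes. Exons of 11 of the 32 genes overlap another annotated gene in GENCODE vM21, among them Sf3b3 with Cog4, Snrpf with Ccdc38, Sf3a2 with Plekhj1 and Lsmd1 with Cyb5d1 on the opposite strand, and the sources used here do not say that reads were counted by strand, so reads of such pairs cannot be told apart. Sm and LSm genes also have processed pseudogenes, whose reads the counting may have split.

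The libraries at 96 h differed from the others in more than these genes. The summed FPKM ran from 228955 to 559135 at 96 h and from 680258 to 1442573 at 0 and 36 h, and in wild-type cells at 96 h library b was lower than library a for all 32 genes. The summed level of 10 mature granulocyte markers was 65644 to 93981 FPKM in wild-type and 119605 to 171646 FPKM in HMGN1-OE libraries at 96 h, and at most 2963 FPKM earlier. That of 9 myeloid progenitor markers was 258 to 871 FPKM at 96 h and 4507 to 15901 FPKM earlier in wild-type libraries. In HMGN1-OE libraries it was 878 to 2117 FPKM at 96 h, 2114 to 2748 FPKM at 0 h and 7136 to 9985 FPKM at 36 h, so that 96 h met the range of 0 h. Markers of monocytes, mast cells and erythroid cells each summed to no more than 577 FPKM at 96 h. Those of mast cells or basophils summed to 456 to 2948 FPKM at 0 and 36 h. In wild-type libraries at 96 h they summed to 298 to 446 FPKM, within the 258 to 871 FPKM of the progenitor markers there. The part of this shift in cell state in the results above was not tested. Mouse Hmgn1 was at 85.7 to 201 FPKM at 0 and 36 h and at 4.71 to 20.7 FPKM at 96 h, and does not check the human transgene, whose reads were not analysed here.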

How the data were processed

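PolyA RNA of 12 samples was sequenced by the authors from TruSeq libraries, 2 for each genotype and time. The sources do not say whether these came from 12 separate cultures. The deposited values are FPKM for each gene and library, which the authors normalized to ERCC RNAs by loess. Per the labels, the submitters' processing notes name HISAT, Cufflinks 2.0.0 and mm9, while the methods of the study name Bowtie and RPKM; no coordinates were taken from the files. Depth is unknown. At best 22.3 to 24.7% of low values per library fell within 0.1 of a whole-read step, where chance gives 20%, so no counting error is given. ERCC RNAs above 1 FPKM on average were 30 of 92. After the loess normalization their mean log2 level differed from the mean over libraries by -0.04 to 0.03. The loess used ERCC RNAs, so this closeness does not check it.

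Deposited FPKM were taken as log2(FPKM + 1), for genes reaching 1 FPKM in 2 or more libraries. limma 3.58.1 in R 4.3.3 (lmFit, eBayes with trend) was fitted once to all 12 libraries with a mean per group, giving two-sided p-values with Benjamini-Hochberg adjustment over the 11516 genes, called under 0.05. The prior degrees of freedom were infinite, so each variance came from the trend over expression, and p-values measure only the spread between these samples. The sources do not tie cultures to separate mice. On data simulated for HMGN1-OE minus wild type at 96 h, 200 of 11516 genes were changed, by 2 or more on the log2 scale. The fit recovered 85.5% of changed genes with 3.93% false calls when noise followed the trend. When each gene had its own noise it recovered 79.5% with 4.79% false calls. The largest genotype difference of the 32 genes at 96 h was 1.22, and recovery at such sizes was not simulated.

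Single genes are given library by library where they had the highest or lowest mean, or the largest or smallest change from 0 to 96 h in wild-type cells, of their complex, and for every gene outside the 5 complexes. From each list of other genes the largest and the smallest change are named. The genes and lists were chosen with earlier results of these data known. Promoter windows came from RefSeq, overlaps and lengths from GENCODE vM21 by symbol. Alternatives were a pseudocount of 0.1, no filter, a mean of at least 5 FPKM, centring, quantile normalization, limma without trend, without moderation or with its robust option, the compared groups only, and each library left out. Tables were made with pandas 2.3.3 in Python 3.11.15, figures with matplotlib 3.10.9. The lymphoid markers are not reported here.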

Additional observations from a re-analysis of the deposited data

How the results depend on the processing

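No paired analysis was possible because the columns do not say which titled replicate each of them holds; their own digits, which nothing ties to the titles, were not used as a block. Of the calls of the 32 genes from 0 to 96 h in both genotypes under the alternatives, 1254 kept direction and side of the threshold, 67 were no longer called, 6 became called and 15 changed sign; the causes were not tested. The number of genes called lower stayed between 29 and 32 with any library left out for wild type from 0 to 96 h, but ran from 16 to 32 for HMGN1-OE cells (16 without library a at 0 h, 17 without library a at 96 h) and from 19 to 32 for HMGN1-OE cells from 36 to 96 h (19 without library a at 96 h). Over all tested genes the share called lower ran from 58.3% to 83.2%, 29.6% to 67.9% and 30.8% to 70.1% in the same fits. For HMGN1-OE against wild type at 96 h the number of genes called higher ran from 0 to 1 (1 without wild-type library a), and none was called lower by limma with any library left out. With a group left at 1 library, that library is assumed to vary like the other groups. The distance of the group median from the all-gene median from 0 to 96 h was -1.06 in wild-type cells as reported and -0.76 under HMGN1-OE. It was -0.79 and -0.54 with a pseudocount of 0.1, -2.74 and -2.004 with no filter, -0.83 and -0.58 with a mean of at least 5 FPKM, -0.71 and -0.48 with quantile normalization, and -1.22 to -0.81 and -0.86 to -0.63 with 1 library left out. The fall of single genes from 0 to 96 h turned to a positive difference when libraries were centred for Lsm10 (0.33 in wild-type, 0.0647 in HMGN1-OE cells), Lsm11 (0.0686 and 0.0614) and Sf3b2 (0.00988 and 0.0964). Under quantile normalization it did so for Lsm10 (0.40 and 0.11), Lsm14a (0.0123 and 0.029), Sf3b1 (0.24 and 0.15), Sf3b2 (0.30 in both) and, in HMGN1-OE cells, Lsm5 (0.0669). Of these, Sf3b1 in wild-type and Sf3b2 in both genotypes were then called higher (limma, adjusted p = 0.0104, 0.0116 and 0.0117).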
